A study of Homo sapiens with 3 samples.

Results

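KMT5A, also called SETD8, is the enzyme that places the first methyl group on lysine 20 of histone H4 (H4K20). The 10 genes described here are KMT5A itself, the enzymes that act on the mark after it (KMT5B and KMT5C, also listed as SUV420H1 and SUV420H2), the ubiquitin ligase that marks KMT5A protein for destruction (DTL, CUL4A, CUL4B and DDB1), proteins that bind methylated H4K20 (L3MBTL1 and TP53BP1) and a demethylase that removes the mark (PHF8). They were chosen by name, with earlier results of these data known, and every probe set annotated to 1 of them was taken. That gave 33 probe sets for 10 of the 19775 genes named on the arrays. RNA came from IMR-90 cells, a line of human fetal lung fibroblasts, transfected for 24 h with SETD8-1 siRNA, SETD8-2 siRNA or the control siRNA (Ctrl siRNA, labelled GL3). With 1 array per siRNA, the spread between cultures is unknown and nothing was tested. All cultures received the transfection reagent and the same medium with 10% serum, and the labels record no genetic change of the cells.

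KMT5A protein and its mark follow the cell cycle. During S phase a cullin-RING ligase called CRL4-CDT2 tags KMT5A that is bound to PCNA on chromatin, and the proteasome destroys it. In this ligase CUL4A or CUL4B is the scaffold, DDB1 is the adaptor and the product of DTL, called CDT2, recognises the substrate. The same ligase destroys the origin licensing factor CDT1 and the cyclin-dependent kinase inhibitor p21, and it thereby helps to keep replication to a single round per cycle. Monomethylated H4K20 accumulates towards mitosis, is bound by the chromatin-compacting protein L3MBTL1, and is the substrate from which KMT5B and KMT5C make the dimethyl form, read by the damage response protein 53BP1 (gene TP53BP1), and the trimethyl form of heterochromatin.

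Values are linear MAS5 signals, which can be set against each other only within a probe set. The trimmed mean of all probe sets was 497 on all 3 arrays, a likeness that MAS5 scaling sets and that is no observation about the cells, and the medians were 44.9 to 46.2. Log2 values were taken after raising signals under 11.7 to that floor, and a probe set passed the filter on low signal if its mean log2 value reached 5.39, a signal of 42.0. Each gene was represented by its brightest probe set, and 12307 genes passed. A gene was called if it differed from the control by 2-fold or more, in the same direction, with SETD8-1 and with SETD8-2 siRNA. As a yardstick for a single gene, the absolute log2 difference between the SETD8-1 and SETD8-2 arrays had a 95th percentile of 2.21 in the lowest quartile of signal (up to 184), 1.72 in the second, 1.25 in the third and 1.14 in the highest (from 2103). The yardstick compares different siRNAs, so it can hold real differences between them besides measurement noise. It is not a spread between replicates. All 10 fibroblast markers passed the filter, with summed signals of 154651, 170610 and 162091 on the SETD8-1, SETD8-2 and Ctrl arrays, sums in which the collagens and VIM weigh most. Single markers differed more, and not in 1 direction. The proteoglycan gene DCN had 7745.9, 22971.2 and 20075.4 in that order, LUM had 10701.6, 23797.7 and 13728.6, and THY1 had 3480.9, 6393.0 and 5200.3. The SETD8-1 array was the lowest for each of these. It was instead the highest for COL1A1, COL1A2, COL3A1, PDGFRA and FAP, with 26989.2, 17971.4 and 25413.6 for COL3A1 and 4939.7, 2534.6 and 3873.0 for FAP. Of the leukocyte markers, 0 of 4 passed, with sums between 56.5 and 127, and endothelial markers, of which 3 of 5 passed, summed to 1570, 2175 and 1368. All 3 were above the control with both siRNAs at any size (PECAM1 1.46 and 0.11, VWF 1.13 and 0.44, TEK 0.03 and 0.70 on the log2 scale), and the endothelial cadherin CDH5 was under the floor on every array. TEK made up 1274.8, 2033.1 and 1251.3 of the endothelial sums. PECAM1 and VWF were in the lowest quartile of signal, with changes under its yardstick of 2.21. Epithelial markers, of which 5 of 7 passed, summed to 3428, 6656 and 3547, and the keratin KRT18 made up 2962.8, 6010.1 and 2987.4 of these sums. The others that passed did not share 1 direction. Their log2 fold changes were -1.68 and 0.31 for EPCAM, 0.25 and 1.14 for KRT8, 0.45 and -0.15 for SFTPB, and -0.23 and -0.77 for SFTPC. The part of any of these cell type markers in the results was not tested.

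Only 1 of the 10 genes was called lower, by 2-fold or more with SETD8-1 as well as SETD8-2 siRNA (3.23% of all genes that passed the filter were), and 0 were called higher (1.5% of all genes). The gene was DTL, the substrate receptor of the ligase. KMT5A was lower on each of its probe sets but by under 2-fold with SETD8-2 siRNA, and the scaffold, adaptor, reader and demethylase genes lay between -0.62 and 1.04 on the log2 scale with either siRNA. KMT5C was dim and 5.68-fold lower with SETD8-2 siRNA alone. Counting any size of change, 6 of the 10 genes were lower with both siRNAs (33.9% of all genes) and 2 were higher with both (31.1%). The 6 include KMT5A, the target of the siRNAs, whose direction the design gives. They also include KMT5C, which passed the filter through the Ctrl and SETD8-1 arrays. The 2 include L3MBTL1, which passed the filter through the SETD8 arrays. The medians of the 10 log2 fold changes, KMT5A included, were -0.38 with SETD8-1 siRNA and -0.26 with SETD8-2 siRNA, against -0.02 and -0.01 over all genes. These data come from whole cultures, in which fewer cells at a given stage of the cycle and less RNA per cell cannot be told apart.

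**Figure D1:**
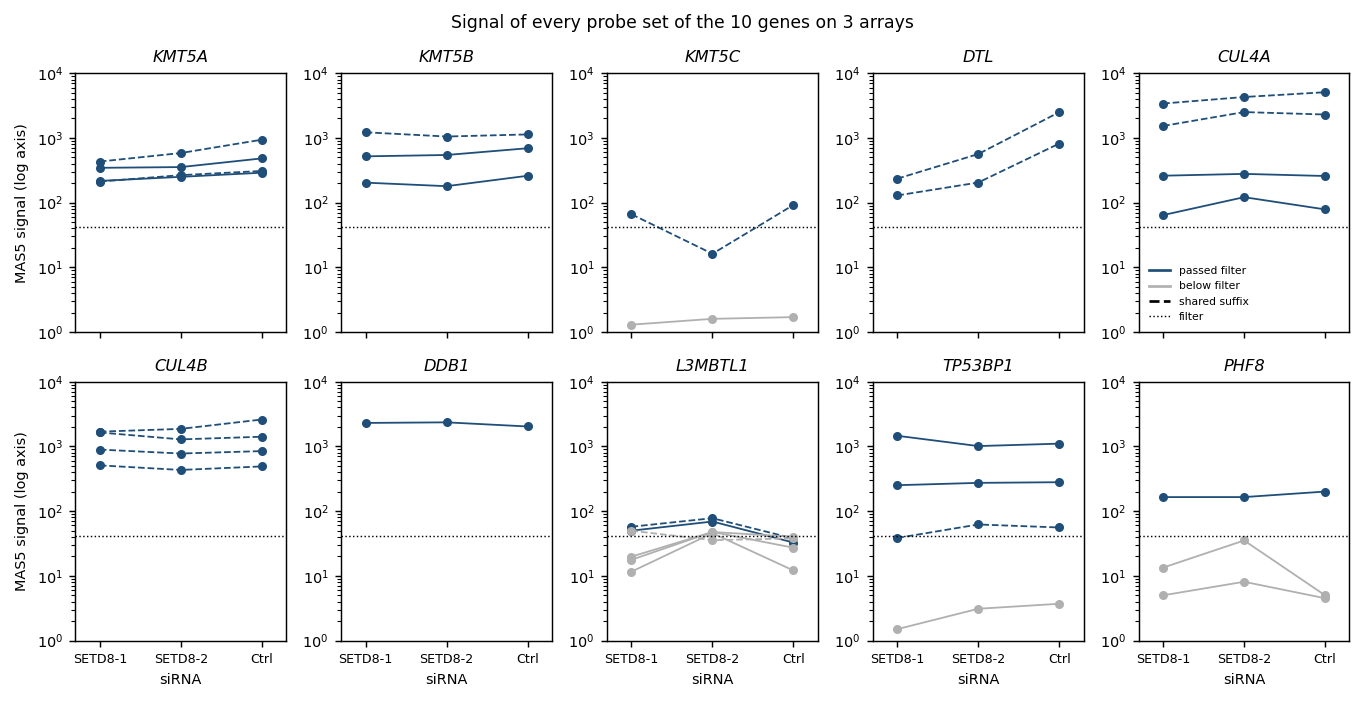
MAS5 signal (log axis) of all 33 probe sets of the 10 genes on the SETD8-1, SETD8-2 and Ctrl siRNA arrays, with 1 point per array and 1 line per probe set; grey lines failed the filter on low signal, dashed lines carry a suffix for shared probes, and the dotted line is the filter at a signal of 42.0. Both DTL probe sets and all 4 of KMT5A are highest with Ctrl siRNA, while the line of DDB1 is nearly level.

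The promoters of DTL and KMT5A are shown because these are the genes with several probe sets above the filter that were lower on all of them. The lines give the 250 bases before the annotated start, 5′ to 3′ on the strand of the gene, from RefSeq (GRCh38.p14). Capitals mark matches to an E2F word (TTTGGCGC, TTTCCCGC, TTTGCCGC or TTTCGCGC) or to CCAAT, on either strand. E2F factors drive genes of the G1 to S transition, and CCAAT boxes, bound by NF-Y, are common in promoters of cell cycle genes. The DTL window is chr1:212035498-212035747 on the plus strand, and the KMT5A window, the more upstream of its 2 starts, is chr12:123383882-123384131 on the plus strand.
DTL: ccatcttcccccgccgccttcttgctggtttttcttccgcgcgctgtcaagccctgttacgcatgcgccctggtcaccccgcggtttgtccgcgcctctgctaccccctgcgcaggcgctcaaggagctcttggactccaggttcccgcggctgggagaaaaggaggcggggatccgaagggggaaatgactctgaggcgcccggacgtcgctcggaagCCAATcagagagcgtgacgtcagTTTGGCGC
KMT5A: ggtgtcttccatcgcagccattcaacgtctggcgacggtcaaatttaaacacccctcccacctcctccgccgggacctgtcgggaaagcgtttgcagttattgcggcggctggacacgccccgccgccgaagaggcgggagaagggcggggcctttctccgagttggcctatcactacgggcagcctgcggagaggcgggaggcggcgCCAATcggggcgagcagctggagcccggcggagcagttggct
The DTL window holds an E2F word at bases -8 to -1 and a CCAAT at -31 to -27. The KMT5A window holds a CCAAT at -42 to -38 and no E2F word. These matches are letters in a window and say nothing of binding.

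KMT5A, the target of both siRNAs, was lowest on the SETD8-1 array and highest on the control array on all 4 of its probe sets. The brightest, 228443_s_at, had a signal of 431.4 with SETD8-1 siRNA, 584.1 with SETD8-2 siRNA and 938.9 with Ctrl siRNA. Probe set 225094_at had 345.2, 354.4 and 482.4 in the same order. The SETD8 arrays were nearly equal there, at 71.6% and 73.5% of control. Probe set 220200_s_at had 211.7, 266.0 and 308.6 in that order, and 225118_at had 216.7, 250.4 and 290.1. On the brightest probe set the log2 fold changes were -1.12 and -0.68, so KMT5A was at least 2-fold lower with SETD8-1 siRNA (7.75% of all genes) and not with SETD8-2 siRNA (6.65%). Among the genes of the same signal quartile, 8.71% were as low or lower with SETD8-1 siRNA and 14.9% with SETD8-2 siRNA. Both changes of KMT5A from the control lay under the yardstick of 1.72 for that quartile, which is not a measure of noise alone. The SETD8-1 array was lower than the SETD8-2 array by 0.44 on the log2 scale, and 41.8% of the quartile lay as far apart or farther. On 225094_at, the brighter of the probe sets that carry no suffix for shared probes, the fold changes were -0.48 and -0.44, so the value for SETD8-1 siRNA depends on the probe set. All 4 probe sets were thus in the direction the siRNA labels give, at 45.9% to 74.7% of the control signal with SETD8-1 siRNA, and at 62.2% to 86.3% of it with SETD8-2 siRNA.

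KMT5B, which makes most of the dimethyl H4K20, stayed within 1.5-fold of the control on all 3 probe sets. The brightest, 218242_s_at, had a signal of 1223.0 with SETD8-1 siRNA, 1051.4 with SETD8-2 siRNA and 1132.7 with Ctrl siRNA. Probe set 222759_at had 519.4, 545.0 and 692.6 in that order, and 222566_at had 203.6, 179.6 and 260.0. The control array was the highest on these dimmer probe sets, at log2 fold changes of -0.42 and -0.35 and of -0.35 and -0.53 for SETD8-1 and SETD8-2 siRNA, but lay between the SETD8 arrays on the brightest (0.11 and -0.11). The direction for KMT5B with SETD8-1 siRNA therefore differed between probe sets. In the quartile of its brightest probe set, 53.6% of the genes were as low or lower by the mean over both siRNAs.

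KMT5C, which makes the trimethyl form, was measured by 1 dim probe set, and its second, 1570058_at, was under the floor on all 3 arrays. On 224431_s_at the signal was 66.1 with SETD8-1 siRNA, 16.2 with SETD8-2 siRNA and 92.0 with Ctrl siRNA. The SETD8-2 array stood apart, near the floor, and the SETD8-1 array lay close to the control. The log2 fold changes were -0.48 and -2.51, and -0.40 and -1.75 when 16 was added to each signal instead of using the floor. The difference between the SETD8 arrays, 2.03, did not reach the 2.21 that the yardstick gives at such low signal. The change of -2.51 from the control was beyond 2.21, but it rests on 1 probe set with a SETD8-2 signal near the floor. With SETD8-2 siRNA 1.36% of the quartile was as low or lower. The mean log2 value of the probe set, 5.53, was just above the filter at 5.39, and its SETD8-2 signal was under the filter level. It thus passed through the Ctrl and SETD8-1 arrays, so neither its rank nor its size against the yardstick is an independent finding.

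DTL had the largest change of the 10 genes with SETD8-1 siRNA and was lower with both siRNAs on both of its probe sets. Probe set 218585_s_at had a signal of 234.6 with SETD8-1 siRNA, 564.0 with SETD8-2 siRNA and 2502.3 with Ctrl siRNA, and 222680_s_at had 129.1, 204.6 and 819.6 in that order. The control array was the highest by far on each, and the SETD8-1 array the lowest. On the brighter probe set DTL was 10.7-fold lower with SETD8-1 siRNA and 4.44-fold lower with SETD8-2 siRNA (log2 fold changes -3.41 and -2.15), and with the probe sets averaged the log2 values were -3.04 and -2.08. Both values of the brighter probe set lay beyond the yardstick of 1.25, and 0.13% of the genes of its quartile were as low or lower with SETD8-1 siRNA and 1.24% with SETD8-2 siRNA. The SETD8-1 array was also below the SETD8-2 array, by 1.27 on the log2 scale, just past the yardstick, and 4.94% of the quartile lay as far apart. The difference was -0.66 on the dimmer probe set and -0.96 with probe sets averaged, under both the yardstick and 2-fold, so it rests on the brighter probe set. On brightest probe sets, DTL was the member whose difference between the SETD8 arrays passed the yardstick, and with KMT5C it made up the 2 genes at least 2-fold apart between the siRNAs (12.6% of all genes). Both DTL probe sets carry the suffix for shared probes, so DTL has no value when such probe sets are left out.

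CUL4A and CUL4B, the alternative scaffolds of the ligase, did not reach 2-fold with either siRNA on any probe set. For CUL4A, the brightest probe set 201424_s_at had a signal of 3401.3 with SETD8-1 siRNA, 4291.5 with SETD8-2 siRNA and 5087.3 with Ctrl siRNA. Probe set 201423_s_at had 1531.4, 2510.6 and 2299.9 in that order, with the SETD8-1 array low and the SETD8-2 array above the control. The log2 fold changes were -0.58 and -0.25 on the brightest, and 227757_at had 0.01 and 0.11, so the lower value with SETD8-1 siRNA was not found on all CUL4A probe sets. Probe set 232466_at, the dimmest, had signals of 64.2, 121.5 and 78.6.

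For CUL4B, the X-linked scaffold, the brightest probe set 202214_s_at had a signal of 1691.2 with SETD8-1 siRNA, 1868.5 with SETD8-2 siRNA and 2608.0 with Ctrl siRNA (log2 fold changes -0.62 and -0.48). On the other 3 the log2 fold change was 0.05 to 0.22 for SETD8-1 and -0.18 to -0.12 for SETD8-2 siRNA. On those the control array lay between the SETD8 arrays, and all 4 carry a suffix for shared probes. In the quartile of the brightest probe set, the mean over both siRNAs was as low or lower for 11.3% of the genes, and in the quartile of CUL4A for 8.77%.

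DDB1, the adaptor that joins the scaffold to CDT2 and to other substrate receptors, had 1 probe set, 208619_at, with a signal of 2308.0 with SETD8-1 siRNA, 2357.4 with SETD8-2 siRNA and 2034.6 with Ctrl siRNA. Both SETD8 arrays were slightly above the control, at log2 fold changes of 0.18 and 0.21, and 0.03 apart from each other. Thus of the 4 genes of the ligase, the substrate receptor was 2-fold lower with both siRNAs while the scaffolds and the adaptor lay at most 1.54-fold from the control on their brightest probe sets.

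**Figure D2:**
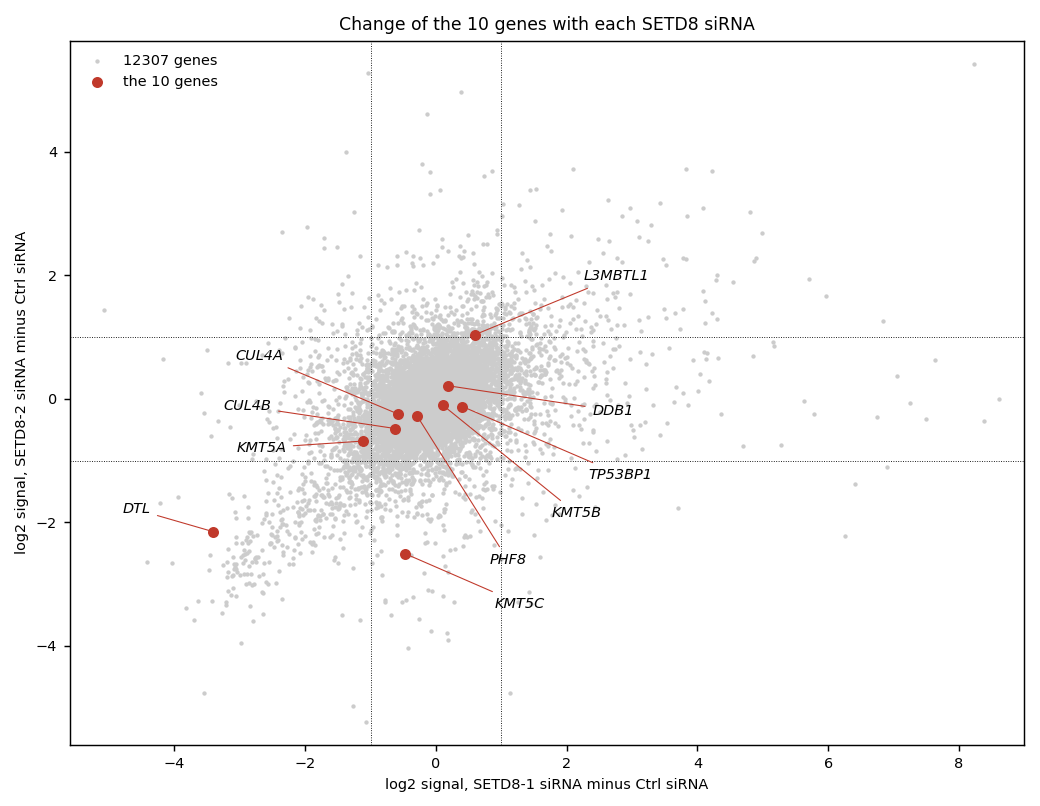
Log2 fold change against Ctrl siRNA of each gene's brightest probe set, with SETD8-1 siRNA on the horizontal and SETD8-2 siRNA on the vertical axis; red points are the 10 genes, grey points all 12307 genes that passed the filter, and dotted lines mark 2-fold. Both axes share the control array. DTL lies past 2-fold on both axes at -3.41 and -2.15, KMT5C on the vertical axis alone at -2.51, and KMT5A on the horizontal axis alone at -1.12.

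L3MBTL1, which binds mono- and dimethylated H4K20 through its MBT repeats and compacts chromatin, was dim on all of its 6 probe sets. The brightest, 206822_s_at, had a signal of 57.4 with SETD8-1 siRNA, 77.8 with SETD8-2 siRNA and 37.8 with Ctrl siRNA, and 210306_at had 49.9, 69.1 and 32.7 in that order. On both, the control array was the lowest and lay under the filter level of 42.0, so these probe sets passed through the SETD8 arrays. The log2 fold changes were 0.60 and 1.04 on the first and 0.61 and 1.08 on the second. L3MBTL1 was therefore at least 2-fold higher with SETD8-2 siRNA (4.46% of all genes) and 1.52-fold higher with SETD8-1 siRNA, with which 0 members reached 2-fold higher (5.48% of all genes). The remaining 4 probe sets failed the filter, and their fold changes ranged from -1.02 to 0.39 with SETD8-1 siRNA and from -0.09 to 1.92 with SETD8-2 siRNA. Values of the size seen here are under the yardstick of 2.21 for genes of such low signal.

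TP53BP1 encodes 53BP1, whose tandem Tudor domain binds dimethylated H4K20 at DNA breaks. Its brightest probe set, 203050_at, had a signal of 1461.4 with SETD8-1 siRNA, 1012.9 with SETD8-2 siRNA and 1104.4 with Ctrl siRNA, and 213266_at had 251.7, 273.5 and 280.0 in that order. The SETD8-1 array was the highest on the first and the lowest on the second, so the direction with SETD8-1 siRNA differed between them (0.40 and -0.15 on the log2 scale), while both were slightly below the control with SETD8-2 siRNA (-0.12 and -0.03). Probe set 1569098_s_at had signals of 38.5, 62.2 and 55.9, and 1569097_at was under the floor on all arrays.

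PHF8, a Jumonji demethylase that removes the methyl group of H4K20 and is mutated in X-linked intellectual disability, had 1 probe set above the filter. On 212916_at the signal was 164.8 with SETD8-1 siRNA, 164.9 with SETD8-2 siRNA and 200.7 with Ctrl siRNA. The SETD8 arrays were equal to within 0.1 and both were below the control, at a log2 fold change of -0.28 with either siRNA, and 34.2% of the genes of the quartile were as low or lower. Probe set 215065_at had signals of 13.4, 35.2 and 5.0, and 238837_at was under the floor on all arrays.

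Over all member probe sets, 25 of 33 passed the filter, and 3 were under the floor on every array. Of the 25, 13 were lower with both siRNAs at any size (35.2% of all named probe sets that passed), 4 were higher with both (29.6%) and 8 lay on opposite sides of the control. The 13 include the 4 probe sets of KMT5A, the target of the siRNAs, whose direction the design gives. They also include the KMT5C probe set that passed the filter through the Ctrl and SETD8-1 arrays. Probe sets of the same gene are not independent, so no conclusion is drawn from these counts. At 2-fold, the 2 of DTL were lower with both (2.93%), and 0 were higher with both (1.37%). KMT5A and DTL were the genes with more than 1 passing probe set on which every one was lower with both siRNAs. L3MBTL1 had both of its 2 passing probe sets higher with both siRNAs, and these are among the 4 counted above. Their control signals were under the filter level, so they passed through the SETD8 arrays and their direction is no independent finding. On its probe sets that failed the filter, the SETD8 arrays lay on opposite sides of the control. How many of all genes are alike on every passing probe set was not counted. In KMT5B, CUL4A, CUL4B and TP53BP1 the passing probe sets differed in direction with at least 1 siRNA.

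The genes nearest to a member by the distance between their pairs of log2 fold changes, over 3 arrays and 12306 genes, were looked up for KMT5A and DTL. For KMT5A these were ZNF107 (distance 0.019), CNTN3 (0.027), TMEM237 (0.033), DPF3 (0.034) and CEP78 (0.035), and 150 genes lay within 0.25. For DTL, 0 genes lay within 0.25, and the nearest were CDCA8 (0.37), a subunit of the chromosomal passenger complex, the mitotic kinesin KIF15 (0.37), the kinetochore protein NUF2 (0.38), the midbody protein CEP55 (0.41) and the pocket protein RBL1 (0.42). CDCA8 had log2 fold changes of -3.18 and -2.44, and KIF15 -3.05 and -2.23. The comparisons behind each pair share the control array.

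Genes that work with the members were followed in 7 lists, of which 84 genes passed the filter. In all, 10 of the 84 (11.9%) were lower by 2-fold or more with each siRNA, against 3.23% of all genes, and 0 were higher with both. The lists were chosen with earlier results of these data known, so no conclusion is drawn from the difference in shares. The medians of the 84 were -0.09 and -0.20. The 10 lay in 4 of the lists, those of ligase substrates, regulators of KMT5A protein, H4K20 readers and the 53BP1 pathway.

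The core machinery of the ligase showed small differences. Of 16 genes of the CRL4 core, neddylation and the COP9 signalosome, 0 reached 2-fold with both siRNAs, and values ran from -0.44 to 0.25 with SETD8-1 siRNA and from -0.44 to 0.32 with SETD8-2 siRNA. The largest shared difference was that of the signalosome subunit COPS3, with a signal of 2520.8 with SETD8-1 siRNA, 2400.2 with SETD8-2 siRNA and 3250.3 with Ctrl siRNA. NEDD8, the modifier that activates cullins, had 0.10 and 0.14, and COPS8 had 0.25 and 0.18. Among 20 other CRL4 substrate receptors, 0 were 2-fold apart with both. On opposite sides of the control lay 12 of these 20, and 4297 of the 12307 genes that passed the filter. DCAF16 had -0.63 and -0.73, DCAF17 -0.81 and -0.32, DCAF5 0.34 and 0.40 and the Cockayne syndrome protein ERCC8 -0.29 and -0.30. The change of DTL was therefore larger than that of any of these 20 receptors, whose lowest values were -1.15 and -0.73.

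Among PCNA and 7 other substrates of CRL4-CDT2, 2 of 8 were called lower. CDT1, the licensing factor, had a signal of 63.6 with SETD8-1 siRNA, 217.3 with SETD8-2 siRNA and 1364.5 with Ctrl siRNA, 21.5-fold and 6.28-fold lower. With probe sets averaged its log2 fold changes were -2.43 and -1.70 in place of -4.42 and -2.65. CDC6, its partner in loading the replicative helicase, had 188.0, 228.6 and 813.3. The order of the arrays for both genes was that of DTL, lowest with SETD8-1 siRNA and highest with the control. PCNA, the sliding clamp on which the ligase finds its substrates, had signals of 5461.9, 4319.3 and 10321.1 (-0.92 and -1.26), and the checkpoint kinase CHEK1 had -0.89 and -1.11. The other 4 were above the control with both siRNAs at any size: CDKN1A, which encodes p21 (1.38 and 0.44), the polymerase subunit POLD4 (0.84 and 0.50), the glycosylase TDG (0.68 and 0.23) and the repair nuclease ERCC5 (0.42 and 0.43). None of these 4 reached 2-fold with both. The list therefore held genes on either side of the control, and its medians of -0.23 and -0.44 became positive, 0.55 and 0.33, with the stricter filter at the 75th percentile, which CDT1 and CDC6 did not pass.

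**Figure D3:**
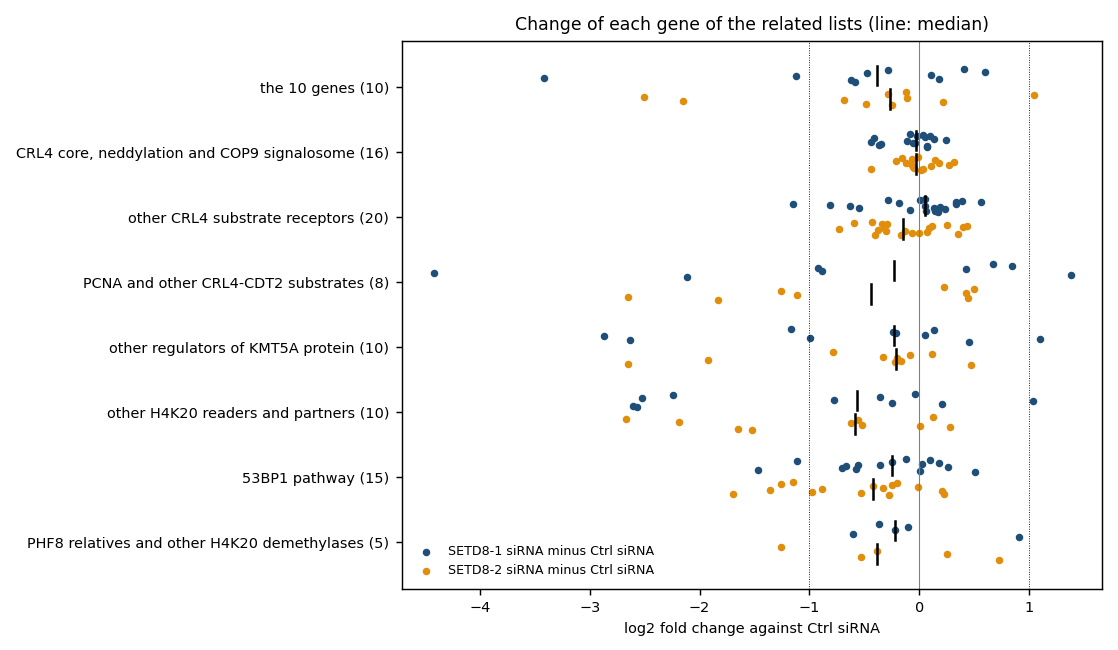
Log2 fold change against Ctrl siRNA of every gene that passed the filter, by list (number of genes in brackets), with SETD8-1 siRNA in blue and SETD8-2 siRNA in orange; black lines are medians and dotted lines mark 2-fold. The medians of the CRL4 core and receptor lists lie close to 0, and the receptor DCAF4 is at -1.15 with SETD8-1 siRNA and 0.09 with SETD8-2 siRNA. The lists of substrates, regulators, readers and the 53BP1 pathway hold the 10 genes at least 2-fold lower with both siRNAs.

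Of 10 other regulators of KMT5A protein, 2 were called lower. These were CDK1 and its partner CCNB1, cyclin B1, the kinase pair that phosphorylates KMT5A in mitosis. CCNB1 had a signal of 1412.1 with SETD8-1 siRNA, 1388.1 with SETD8-2 siRNA and 8748.9 with Ctrl siRNA. CDK1 had 802.3, 1552.4 and 5885.8 in that order, and the SETD8 arrays differed for CDK1 more than for CCNB1. The F-box protein SKP2, a second route of KMT5A degradation, had -1.17 and -0.78. BTRC, the F-box protein beta-TrCP, had 0.45 and 0.47.

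Among the other H4K20 readers and their partners, 4 of the 10 genes that passed were called lower. ORC1, the origin recognition subunit that binds dimethylated H4K20, had a signal of 50.3 with SETD8-1 siRNA, 37.5 with SETD8-2 siRNA and 238.6 with Ctrl siRNA. The condensin II subunit NCAPG2 had 399.8, 506.4 and 2307.6 in that order. BARD1, which reads unmethylated H4K20 on newly replicated chromatin, had 165.0, 342.4 and 982.6, and its partner BRCA1 had 107.4, 207.9 and 652.5. In all 4 the SETD8 arrays were well below the control, with log2 fold changes between -2.67 and -1.52. Without probe sets for shared probes 2 of the list were called. L3MBTL2, a relative of L3MBTL1, had 0.20 and 0.28.

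In the 53BP1 pathway, 2 of 15 genes were called lower. H2AX, the histone variant phosphorylated at DNA breaks, had a signal of 1753.4 with SETD8-1 siRNA, 1497.9 with SETD8-2 siRNA and 4844.8 with Ctrl siRNA, but -0.22 and -0.75 on the log2 scale when its probe sets were averaged, which ends the call. TOPBP1, an activator of the ATR kinase, had 842.6, 760.3 and 1820.4 in that order. MDC1, the H2AX reader, had -0.71 and -0.98, and PAXIP1, a 53BP1 effector, -0.66 and -1.36. The list medians were -0.25 and -0.42. Of 5 relatives of PHF8 and other H4K20 demethylases, 0 were called: KDM7A had 0.91 and 0.73, PHF2 -0.61 and -0.53, RSBN1L -0.37 and -1.26 and RSBN1 -0.10 and -0.38.

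Promoter windows, 250 bases before to 50 after each annotated start, were found in RefSeq for all 10 members. An E2F word was present in 3.99% of all genes with a window (3.31% of 35116 windows). Here and below, a gene counted as holding a word if any of its windows did. CUL4A and CUL4B had 4 windows each, and the shares were not adjusted for the number of windows. Among the members, 3 of 10 held one: DTL at -8 to -1, CUL4A at -194 to -187 of 1 of its 4 windows and L3MBTL1 at -196 to -189 of 1 of its 2 windows. Of the 11 member and related genes at least 2-fold lower with both siRNAs, 5 held an E2F word (DTL, CDT1, CDC6, CDK1 and TOPBP1), against 7 of the 74 others with a window, PCNA among them. The 11 were picked by their fold changes in these data, from lists chosen with earlier results known. No conclusion is therefore drawn from this split, here or for the words below. COPS3, which was not called, also held one close to a start, at 14 to 21. The windows of CDT1, the substrate with the largest decrease, and of PCNA are shown for comparison with that of DTL, over the 60 and 70 bases before the start, with the E2F word in capitals. They are chr16:88803729-88803788 on the plus strand and chr20:5126623-5126692 on the minus strand (GRCh38.p14).
CDT1: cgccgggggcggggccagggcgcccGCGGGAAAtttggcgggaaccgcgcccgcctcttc
PCNA: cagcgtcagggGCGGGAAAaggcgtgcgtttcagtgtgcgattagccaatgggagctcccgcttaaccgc
The word lies on the other strand in both, at -35 to -28 in CDT1 and -59 to -52 in PCNA. The cell cycle homology region (CHR) word, TTTGAA or TTCGAA, was present in 3 of the 10 members and in 19.5% of all genes with a window, and CCAAT in 6 of the 10 and in 39.7%. CHR words were in 3 of the 11 genes called lower and 14 of the 74 others, and CCAAT in 7 of the 11 and 41 of the 74. KMT5A held TTCGAA at 18 to 23 bases after its upstream start, besides the CCAAT shown above. DDB1 and KMT5B held none of the words.

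**Figure D4:**
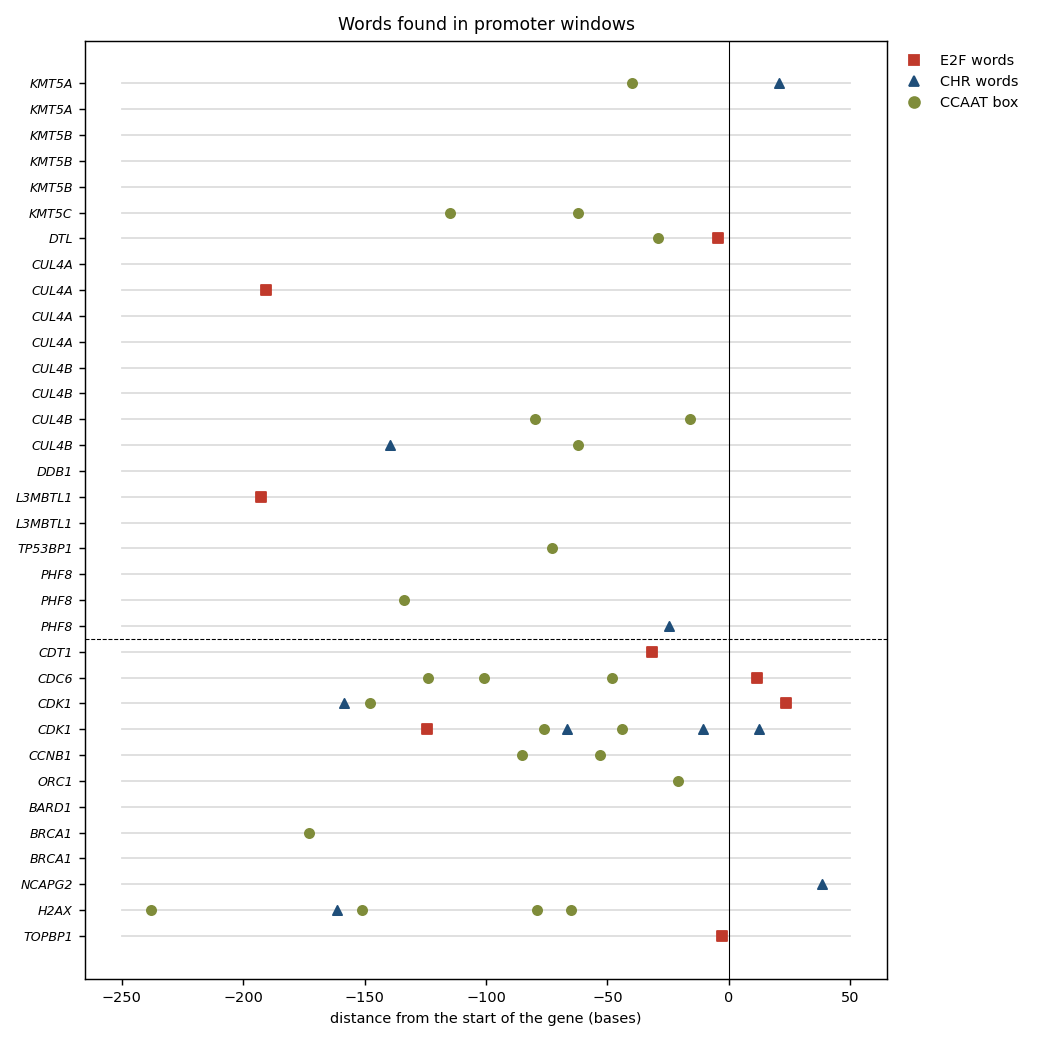
Position of E2F words, CHR words and CCAAT in the promoter windows of the 10 genes (above the dashed line) and of the 10 related genes at least 2-fold lower with both siRNAs (below it), 1 row per annotated start; the horizontal axis is the distance from the start in bases. The E2F word of DTL ends at -1, while those of CUL4A and L3MBTL1 lie near -190.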

How the data were processed

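The authors deposited linear intensity for each probe set. MAS5 is the tool named, per the submitters' processing notes, without its version or settings, and detection calls were not used here. Biotinylated cRNA came from 250 ng of total RNA. Probe sets were named through GEO's platform annotation, updated to RefSeq symbols of GRCh38.p14: 41091 of 54613 had 1 gene, 1801 several and 11721 were not listed. Suffixes _s_at, _x_at and _a_at mark probes shared between transcripts or genes. With 1 array per siRNA, groups were compared by a fixed fold with no test, and the number of arrays limits the precision. The floor was the 25th percentile of all values and the filter the median over probe sets. The named genes were the members, up to 4 genes per list with the largest shared change, all called genes, and the 5 nearest to KMT5A and DTL. CDKN1A, TDG, POLD4, ERCC5, L3MBTL2, DCAF4 and the single cell type markers were named after their values were seen. The members and lists were chosen with earlier results of these data known. The alternatives tried were quantile normalization, median scaling, averaged probe sets, a pseudocount of 16, a filter at the 75th percentile, no filter, no shared probe sets, and 1.5-fold and 3-fold thresholds. Python 3.11.15, numpy 2.4.6, pandas 2.3.3 and matplotlib 3.10.9 were used.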

Additional observations from a re-analysis of the deposited data

How the results depend on the processing

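DTL was the member called lower with SETD8-1 and SETD8-2 siRNA alike under median scaling, quantile normalization, the pseudocount, both other filters, averaged probe sets and the 3-fold threshold. In these settings the share of all genes called lower ran from 1.55% (at 3-fold) to 3.73% (without a filter). Without shared probe sets the count of lower members was 0 (3.07% of all genes), because DTL has no other probe set. At 1.5-fold it was 2, with KMT5A added (7.37% of all genes). At that fold 1 member, L3MBTL1, was higher with both (4.59% of all genes), and it passed the filter through the SETD8 arrays. The KMT5A log2 fold change with SETD8-1 siRNA was -0.48 without shared probe sets, and it stayed between -1.12 and -0.64 in the other settings. Of 183 member values under alternatives, 178 moved by at most 1.5-fold, 5 moved more and 10 changed sign, all of them under 2-fold in the reported setting. Those that moved more were KMT5C (-1.75 with SETD8-2 siRNA and 1.35 between the siRNAs, with the pseudocount), TP53BP1 (-0.07 between the siRNAs, with averaged probe sets), CUL4A (0.01 with SETD8-1 siRNA, without shared probe sets) and KMT5A as given. Only 7 members could be tested with the stricter filter, with averaged probe sets or without shared ones. Over all genes, the counts of 398 lower and 185 higher with both became 737 and 460 without a filter, 204 and 80 with the stricter filter, 907 and 565 at 1.5-fold, and 191 and 57 at 3-fold. The genes tested were 19775 without a filter, 7755 with the stricter filter, and 12307 in the reported setting and at 1.5-fold and 3-fold. No paired analysis was possible because each siRNA has 1 array. Signals near the floor limit what KMT5C, L3MBTL1 and the dimmer PHF8 probe sets can show.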
